A study of Mus musculus with 4 samples.

Results

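Ly6a, Ly6c1 and Ly6e encode small proteins of the Ly6 family that sit on the surface of lymphocytes. They were read here in mouse regulatory T cells (Treg), the CD4-positive T cells that express Foxp3 and restrain immune responses. The 3 genes were chosen by name, with earlier results of these data known. Each matched exactly 1 of the 38924 gene identifiers in the deposited tables. All 3 are among the 14235 genes with enough counts to be tested. RNA came from spleen Treg labelled resting (rTreg) or activated (aTreg), with 2 samples of each from independent animals. Both populations were sorted as CD4+Foxp3+ cells, the labels print the same gate for both, CD44lo included, and they give no strain, age, allele or treatment. The libraries were made by template switching from low RNA input, which amplifies by PCR and carries no molecular identifiers. The count columns show the group but not which sample, so the libraries carry the letters A and B within each group, and the letters pair nothing. Where 4 values follow each other without names, they run from resting A and resting B to activated A and activated B.

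Ly6 proteins fold into a compact disulfide-linked domain and are held at the outer face of the cell membrane by a glycosylphosphatidylinositol (GPI) lipid anchor. Ly6a, also known as Sca-1, marks blood stem cells and activated or memory lymphocytes. Ly6c1 encodes an Ly-6C antigen, a marker long used to subdivide T cells and monocytes. Ly6e is expressed in many tissues and affects virus entry. Interferons are known to induce all 3 genes. The genes lie in a cluster of relatives on chromosome 15 (mm10, GENCODE M21): Ly6e from 74955051 to 74959905 on the plus strand, Ly6a from 74994877 to 74998031 and Ly6c1 from 75044018 to 75048830, both on the minus strand.

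Ly6c1 has a near copy, Ly6c2, from 75108158 to 75111970 on the minus strand of the same chromosome. Their coding sequences are both 393 bases long over 3 coding exons and differ at 9 positions, so that 97.7% of bases are identical. The first and last coding exons are shown because they hold all 9 differences, printed in capitals, the places where coding reads of the pair can be told apart. The first coding exon (exon 2 of both transcripts) lies at chr15:75048442-75048511 in Ly6c1 and at chr15:75111598-75111667 in Ly6c2 and holds 6 of the differences.
Ly6c1, exon 2: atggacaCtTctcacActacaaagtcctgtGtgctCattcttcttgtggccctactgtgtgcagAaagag
Ly6c2, exon 2: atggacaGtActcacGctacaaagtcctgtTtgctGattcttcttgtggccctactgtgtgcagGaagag
The last coding exon (exon 4) lies at chr15:75045405-75045610 in Ly6c1 and at chr15:75108546-75108751 in Ly6c2 and holds the other 3.
Ly6c1, exon 4: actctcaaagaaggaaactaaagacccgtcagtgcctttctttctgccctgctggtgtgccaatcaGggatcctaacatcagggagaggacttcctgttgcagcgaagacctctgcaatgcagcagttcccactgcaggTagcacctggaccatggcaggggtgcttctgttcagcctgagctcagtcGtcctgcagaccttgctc
Ly6c2, exon 4: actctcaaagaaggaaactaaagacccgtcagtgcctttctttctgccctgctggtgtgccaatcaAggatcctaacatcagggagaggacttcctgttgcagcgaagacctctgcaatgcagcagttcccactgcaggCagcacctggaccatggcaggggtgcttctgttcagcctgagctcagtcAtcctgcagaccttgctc
The sequences are from GENCODE M21 transcripts, 5′ to 3′ on the coding strand. The exon between them, 117 bases long, is identical in both genes.

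How far such likeness reaches along the whole transcripts was counted in windows that could stand for a read. Of the 795 windows of 50 bases in the longest Ly6c1 coding transcript, 292 (36.7%) occur exactly in a transcript of another gene, 252 of them in Ly6c2. With windows of 100 bases the shared part is 114 of 745 (15.3%), all with Ly6c2. Ly6a shares 91 of 906 windows of 50 bases (10.04%) with relatives and 0 of 856 windows of 100 bases. Ly6e shares 0 of 2232 windows of 50 bases. A Ly6e read is thus separable by sequence, whereas part of the reads of Ly6c1, and at short length of Ly6a, are not. Read length, and how reads mapping to several genes were handled, was not given in the sources used here.

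Totals per library ranged from 20282062 to 31851982 counts, and 18928 to 23398 genes had at least 1 count. Levels are in CPM, the counts scaled to a common library size with edgeR's TMM factors, and 1 CPM stood for 20.3 to 30.6 counts. Foxp3 was at 38.8, 35.1, 37.5 and 36.7 CPM, and Cd4 between 897 and 1250 CPM. Cd44 was at 145, 213, 329 and 335 CPM, so that both activated libraries lay above both resting ones although the printed gate is the same. Genes of other spleen cells were present as well. The summed CPM of 10 plasmacytoid dendritic cell markers was 176, 189, 993 and 352. Most of this sum in both resting libraries came from Pacsin1, Bst2 (54.6 and 71.2) and Ccr9 (25.4 and 21.3). Pacsin1 differed little between the groups (62.5, 71.9, 69.4 and 80.2). Among the other plasmacytoid markers, Siglech, Cox6a2, Klk1 and Cd300c each stayed under 1 CPM in both resting libraries. Each of them reached 4.05 CPM or more in both activated ones. Tcf4 (9.43 and 4.5 CPM), Runx2 (5.35 and 12.5) and Lair1 (17 and 7.25) were above 1 CPM in both resting libraries. The summed CPM of 10 conventional dendritic cell markers was 89.6, 23.6, 870 and 211. H2-Aa alone, at 56.1, 13.8, 636 and 153 CPM, made up most of this sum in every library. The 10 red pulp macrophage markers summed to 961, 66.0, 858 and 161 CPM, higher in A than in B in both groups. Ly6a and Ly6c1 shared that direction but not its size. Between activated A and B the log2 difference was 2.415 for the sum, 0.37 for Ly6a and 0.60 for Ly6c1. Axl, at 68.5, 47.6, 101 and 121 CPM, made up most of the sum in both B libraries and was higher in activated B than in activated A. All 10 markers of each list had counts, and their part in the levels of the members was not tested. In bulk RNA, fewer cells of a type and less RNA per cell cannot be told apart.

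Ly6c1 was the member that differed most between the groups. It had 3437 and 2737 counts in the resting libraries and 752 and 329 in the activated ones. In CPM, Ly6c1 was at 167 and 89.4 in resting A and B against 24.6 and 16.2 in activated A and B. The groups did not overlap, and the lower resting library was still far above the higher activated one. The means were 128 ± 55.0 CPM (SD, n = 2) in resting and 20.4 ± 5.92 CPM in activated Treg. The log2 fold change of Ly6c1, activated over resting, was -2.64 ± 0.40 (SE; 95% interval -3.66 to -1.63), a 6.25-fold lower level. It did not pass edgeR's quasi-likelihood test over all genes (adjusted p = 0.267, unadjusted p = 0.00105), where 0 of 14235 genes passed (0%). By unadjusted p it ranked 45 of 14235. DESeq2 called Ly6c1 lower, with an adjusted p of 1.31e-08, as it did 118 of the 13959 genes it gave an adjusted p (0.845%). Leaving out resting A or resting B brought Ly6c1 past the edgeR threshold as well, at adjusted p = 0.000261 with a log2 fold change of -2.13 and adjusted p = 0.00836 with -3.04. Ly6c1 did not pass with activated A left out (-2.96, adjusted p = 0.13) or activated B left out (-2.38, adjusted p = 0.105). In every fit here that leaves out a library, the lone library of its group is assumed to vary like the other group.

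Ly6a was somewhat higher in the activated libraries. Resting A and B had 193 and 148 CPM of Ly6a, and activated A and B had 268 and 207 CPM. The groups did not overlap, but the distance between resting A and activated B was small beside the spread within each group. The means of Ly6a were 170 ± 32.2 CPM and 237 ± 43.3 CPM (SD, n = 2 each). Its log2 fold change was 0.48 ± 0.23 (SE; 95% interval -0.11 to 1.07), a 1.39-fold difference that did not pass by edgeR (adjusted p = 0.700) or DESeq2 (adjusted p = 0.674). The value was 0.29 without resting B or without activated A, and 0.67 without resting A.

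Ly6e was the most abundant member and differed least. Resting A and B had 1884 and 1858 CPM of Ly6e, whereas activated A and B had 2054 and 2477 CPM. The resting libraries were nearly equal, and activated B stood above the other 3. The means of Ly6e were 1871 ± 18.6 CPM and 2265 ± 299 CPM. Its log2 fold change was 0.28 ± 0.17 (95% interval -0.16 to 0.71) and did not pass by edgeR (adjusted p = 0.813) or DESeq2 (adjusted p = 0.999). It was 0.41 without activated A and 0.13 without activated B.

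**Figure D1:**
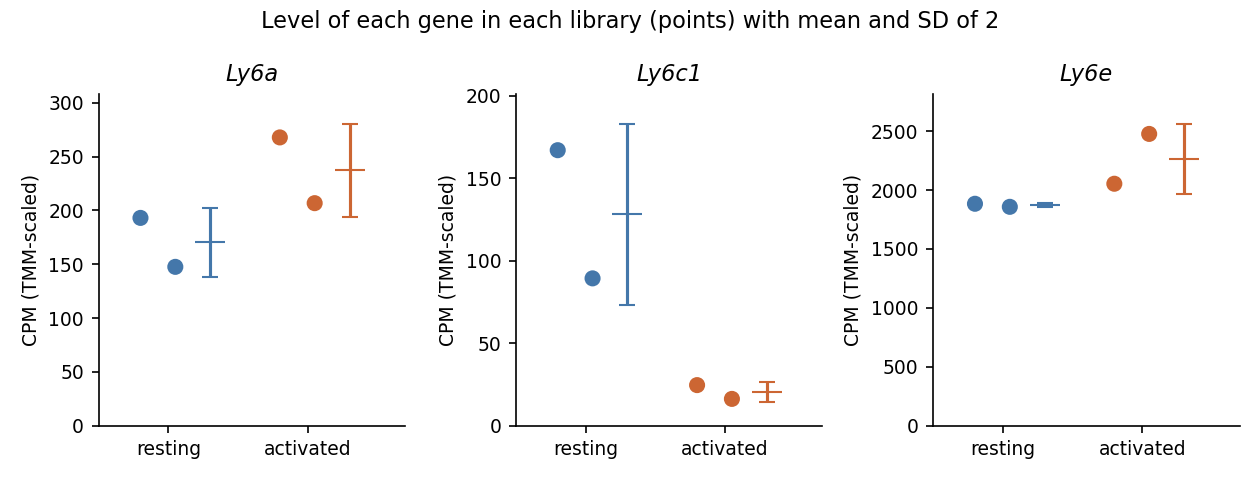
CPM of Ly6a, Ly6c1 and Ly6e in each library, with linear axes from 0; points are libraries (A left, B right in each group), and bars give the mean and SD of 2. Ly6c1 is at 89.4 CPM or more in both resting libraries and at 24.6 or less in both activated ones, while Ly6a and Ly6e lie slightly higher in the activated libraries.

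Across the 3 members, both activated libraries lay above both resting ones in 2 (Ly6a and Ly6e) and below in 1 (Ly6c1). Over all tested genes such separation was common, with 19.8% of genes above and 17.4% below, so it carries little for Ly6a and Ly6e. At an unadjusted edgeR p under 0.05, 1 member was lower and 0 were higher, against 2.61% and 6.3% of all tested genes. DESeq2 called 1 member lower and 0 higher, and over all genes it called 2.32% higher. With 2 libraries in each group the smallest p of an exact two-sided permutation test is 0.333, so none was run.

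The regularized log2 values deposited by the authors carry the replicate numbers 1 and 2. On that scale Ly6c1 was at 11.88 and 11.05 in resting 1 and 2 and at 9.33 and 8.80 in activated 1 and 2, a difference of -2.40. Ly6a was at 12.23 and 11.88 against 12.66 and 12.32, and Ly6e at 15.52 and 15.51 against 15.62 and 15.89. The order of the groups for each gene is that of the counts, and this scale pulls genes with few counts towards their mean.

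Levels of different genes were compared only per length, as TPM, in which counts are divided by the summed exon length and scaled to the same sum in every library. In resting A and B, Ly6e was at 1418 and 1316 TPM, Ly6a at 457 and 328 TPM and Ly6c1 at 284 and 143 TPM. In activated A and B, Ly6e was at 1648 and 1769 TPM, Ly6a at 675 and 464 TPM and Ly6c1 at 44.5 and 26.2 TPM. The order Ly6e, Ly6a, Ly6c1 was therefore the same in all 4 libraries. The ratio of Ly6a to Ly6c1 was 1.61 and 2.30 in the resting libraries and 15.2 and 17.7 in the activated ones. Ly6e ranked between 62 and 91 from the top of 37607 genes, Ly6a between 190 and 439, and Ly6c1 at 496 and 1045 in resting but 3401 and 4481 in activated Treg. The step between Ly6a and Ly6c1 in resting Treg depends on the length used. Over the longest coding transcript, a length added after the data were seen, Ly6a was at 403 and 289 TPM and Ly6c1 at 395 and 198 TPM in resting A and B. These ranges overlap, with ratios of 1.02 and 1.46, and the activated ratios were 9.63 and 11.3.

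Ly6c2, the near copy of Ly6c1, ran the other way. Ly6c2 had 67 and 213 counts in the resting libraries (A, B) and 3771 and 671 in the activated ones, which is 3.26, 6.95, 123 and 33.1 CPM. Both activated libraries were above both resting ones, and they differed from each other by 1.898 on the log2 scale. Its log2 fold change was 3.91 ± 0.77, not past edgeR's threshold (adjusted p = 0.290) and called higher by DESeq2 (adjusted p = 1.13e-07). It was 2.68 without activated A, where it did not pass (edgeR adjusted p = 0.166), and 4.56 without activated B, where it did (edgeR adjusted p = 0.0165). It also passed without resting A (3.46, adjusted p = 2.24e-05) and without resting B (4.55, adjusted p = 0.014).

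The counts of the pair were mostly of Ly6c1 in the resting libraries and mostly of Ly6c2 in the activated ones. Ly6c1 made up 98.1% of the pair's counts in resting A (95% exact binomial interval 97.6 to 98.5) and 92.8% in resting B (91.8 to 93.7). It made up 16.6% in activated A (15.6 to 17.7) and 32.9% in activated B (29.99 to 35.9). These intervals treat every read as independent and leave out the spread between animals. PCR copies are not independent molecules, so the intervals are too narrow even for counting error. The summed level of the pair was 170, 96.3, 148 and 49.4 CPM, with means of 133 ± 52.4 and 98.7 ± 69.7 CPM. The groups overlapped in the sum. Counted as 1 feature, the pair had a log2 fold change of -0.43 ± 0.57 (edgeR adjusted p = 0.968). The groups thus separated for each gene of the pair and overlapped for their sum. The part of reads that fit both genes in these counts was not tested.

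**Figure D2:**
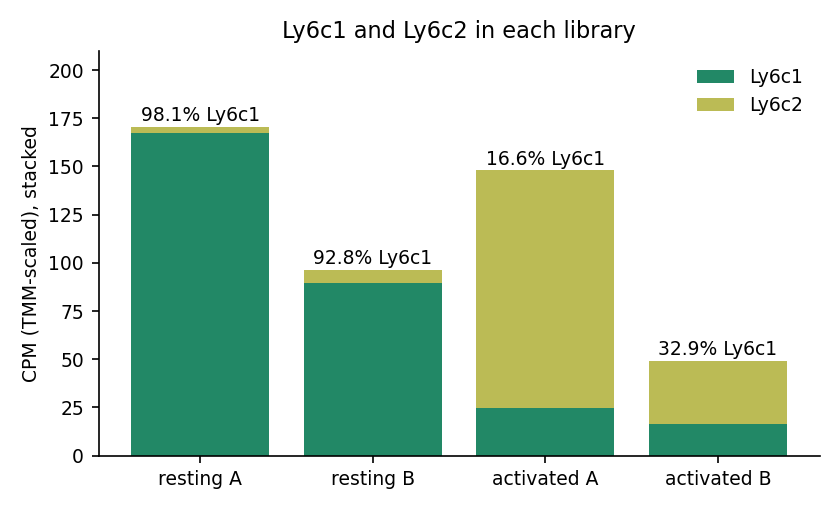
Stacked CPM of Ly6c1 (lower part of each bar) and Ly6c2 (upper part) in the 4 libraries, on a linear axis from 0; the number above each bar is the share of Ly6c1 in the pair's counts. The share is 98.1% and 92.8% in the resting libraries and 16.6% and 32.9% in the activated ones, while the heights of the bars overlap between groups.

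Ly6c2 is also a textbook gene of monocytes and plasmacytoid dendritic cells, so the markers of those cells are given beside it. Siglech, a defining receptor of plasmacytoid dendritic cells, was at 0.778, 0.261, 280 and 58.7 CPM. The plasmacytoid sum was 1.497 higher on the log2 scale in activated A than in activated B, where Ly6c2 was 1.898 higher. The sums of conventional dendritic, monocyte, neutrophil and red pulp macrophage markers were higher in activated A as well, by 2.042, 1.091, 1.874 and 2.415. Single plasmacytoid markers differed by more or less than their sum. In activated A and B, Klk1 was at 41.3 and 11.3 CPM and Cox6a2 at 30.1 and 8.09 CPM. Pacsin1 alone went the other way, at 69.4 and 80.2 CPM. The 10 monocyte markers, all with counts, summed to 166, 108, 389 and 183 CPM. Of these, Lyz2 was at 11.8, 2.15, 105 and 25.6 CPM and Csf1r at 74.2, 2.48, 72.8 and 5.23 CPM, and 9 of the 10 had a log2 fold change above 0. Ccr2, at 13, 76.7, 123 and 120 CPM, made up most of the monocyte sum in both B libraries. The 10 neutrophil markers summed to between 0.131 and 6.15 CPM, with S100a8, S100a9, Ngp and Cxcr2 listed at 0 in both resting libraries. Ly6c1, Ly6a and Ly6e differed between activated A and B by 0.60, 0.37 and -0.27 on the same scale, less than the plasmacytoid sum. The part of other cells in any of these values was not tested.

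The promoters of Ly6c1 and Ly6c2 are shown because the near copies differ in opposite directions. The promoter table from RefSeq (GRCm38.p6) has entries for 1 of the 3 members, Ly6c1, and for Ly6c2. The 250 bases before the most upstream start are printed, on the minus strand and 5′ to 3′, at chr15:75048838-75049087 for Ly6c1 and chr15:75111972-75112221 for Ly6c2, with capitals for the motif ATAAACA.
Ly6c1 promoter: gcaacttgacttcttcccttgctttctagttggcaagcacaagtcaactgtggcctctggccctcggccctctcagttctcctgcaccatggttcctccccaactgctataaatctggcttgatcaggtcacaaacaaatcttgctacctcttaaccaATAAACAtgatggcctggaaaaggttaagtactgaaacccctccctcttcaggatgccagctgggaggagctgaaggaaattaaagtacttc
Ly6c2 promoter: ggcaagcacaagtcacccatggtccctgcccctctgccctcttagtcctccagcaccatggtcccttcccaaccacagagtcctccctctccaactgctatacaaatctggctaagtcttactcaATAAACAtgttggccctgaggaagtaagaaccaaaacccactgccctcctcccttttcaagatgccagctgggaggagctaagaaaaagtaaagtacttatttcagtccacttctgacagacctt
In a global alignment 164 of 284 columns (57.7%) are identical, where columns with gaps count as not identical. Like stretches lie at different distances from the start in each gene, so the window ends have no partner. This share therefore cannot be set beside that of the coding sequence, which was compared without gaps. Both hold ATAAACA once, with its first base at position -92 from the start in Ly6c1 and at -125 in Ly6c2. This variant of the forkhead motif, chosen after the sequences were seen, occurs in 4.59% of the 32544 promoter windows of 300 bases on either strand. Other motifs were searched on both strands of the 2 windows of each gene. They were the forkhead motif GTAAACA, the interferon motif GAAA followed by any pair of bases and GAAA again, the STAT motif TTCNNNGAA and the Klf motif GGGTGTGG. They occur in 3.66%, 3.45%, 8.33% and 3.57% of all promoter windows, and these letters are in none of the 4 windows of Ly6c1 and Ly6c2.

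The rest of the Ly6 family was read from a list of 43 genes, of which 39 are in the count table and 10 were tested, the 3 members included. The highest level of any of the 29 untested genes was 0.888 CPM. The 10 tested genes had a median log2 fold change of 0.49, against -0.01 over all tested genes, and 0 passed by edgeR. At an unadjusted p under 0.05, 3 were higher and 2 lower, against 6.3% and 2.61% of all tested genes. DESeq2 called 3 higher and 2 lower, against 2.32% and 0.845%. The 3 genes called higher, Ly6c2, Ly6d and Plaur, had 38 or more counts in each resting library. They were thus not tested only because their activated libraries were high. The list was chosen with earlier results of these data known, so these numbers of calls describe the list and support nothing. Ly6d, a marker of B lymphoid and plasmacytoid precursors, was at 4.08, 3.04, 134 and 43.2 CPM, and its log2 fold change was 4.62 ± 0.64 (edgeR adjusted p = 0.267, DESeq2 adjusted p = 1.26e-14). Plaur, the urokinase receptor and a distant family member, was at 1.85, 1.67, 23.8 and 7.40 CPM, with 3.10 ± 0.63 (edgeR adjusted p = 0.294, DESeq2 adjusted p = 0.000107). Both were higher in activated A than in activated B, by 1.64 and 1.69 on the log2 scale. The plasmacytoid (1.497), conventional dendritic (2.042), monocyte (1.091), neutrophil (1.874) and red pulp macrophage (2.415) sums were higher in activated A too. The sum of 10 B cell markers was lower there (-0.416). By edgeR, Ly6d passed without resting A (4.82, adjusted p = 5.61e-08) and with resting B left out (4.41, adjusted p = 0.012) or activated B left out (5.21, adjusted p = 0.00343). It did not pass with activated A left out (3.58, adjusted p = 0.077). Plaur passed edgeR with resting A left out (3.16, adjusted p = 0.00112) or activated B left out (3.70, adjusted p = 0.0265). It did not pass with resting B left out (3.02, adjusted p = 0.0773) or activated A left out (2.04, adjusted p = 0.275). Lypd6b was the other gene that DESeq2 called lower, at 9.53, 4.63, 1.996 and 1.28 CPM (log2 fold change -2.05 ± 0.52, DESeq2 adjusted p = 0.0312). Ly6k (-0.62 ± 0.66) and Lynx1 (0.51 ± 0.47) overlapped between the groups, and Ly6g5b had 0.67 ± 0.48.

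**Figure D3:**
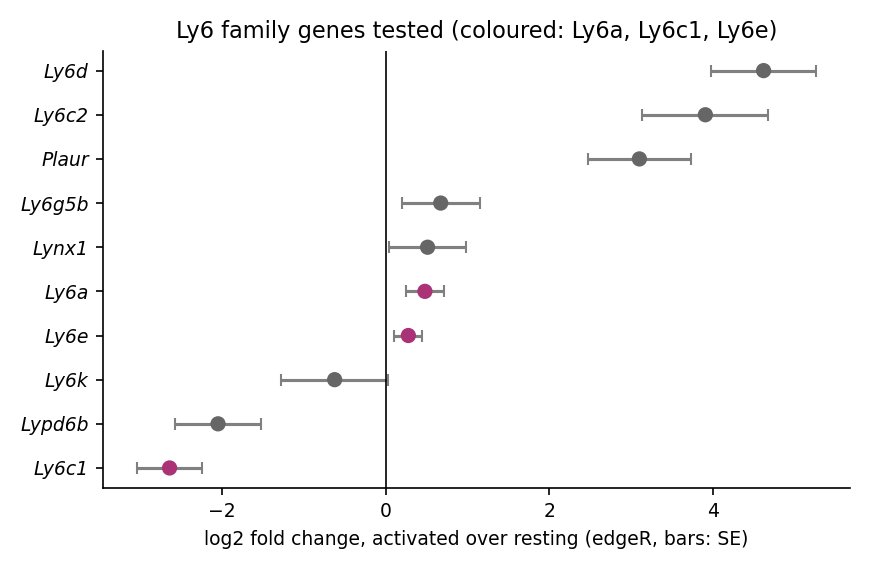
Log2 fold change of the 10 tested Ly6 family genes, activated over resting, with the edgeR standard error as bars; Ly6a, Ly6c1 and Ly6e are coloured. Ly6c1 is the lowest at -2.64, Ly6a and Ly6e lie near 0, and Ly6d, Ly6c2 and Plaur lie above 3.

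Neighbours in the cluster were read next. Within 100 kb of the span from Ly6e to Ly6c1 the annotation holds 17 genes, of which 7 are in the count table and 5 were tested. Beside Ly6e, Ly6a, Ly6c1 and Ly6c2 the tested gene was 2010109I03Rik, at 1.94, 4.54, 3.04 and 5.38 CPM (log2 fold change 0.36 ± 0.57). Ly6i, which shares sequence with Ly6a and lies between Ly6e and Ly6a, had 7, 4, 7 and 18 counts. Cyp11b2 was listed at 0 in all 4 libraries, which allows up to 3 counts, or 0.0979 to 0.148 CPM. Ly6a and Ly6c1, on the same strand, had fold changes of opposite sign, as had Ly6c1 and Ly6c2.

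**Figure D4:**
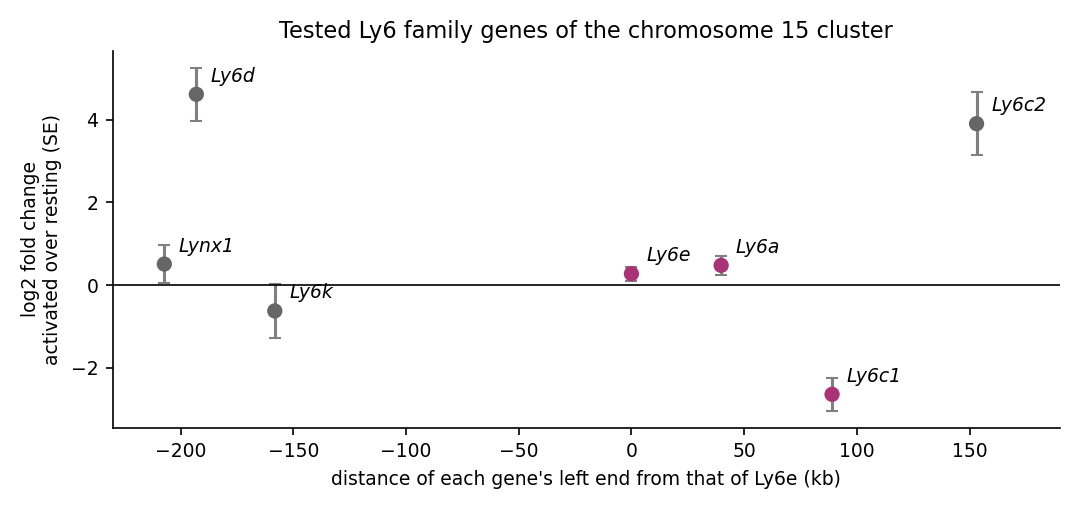
Log2 fold change (bars: SE) of the tested Ly6 family genes of chromosome 15 against the distance of each gene's left end from that of Ly6e, in kb. Ly6c1, 89.0 kb away, lies at -2.64 between Ly6a at 0.48 and Ly6c2 at 3.91.

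Genes with the most similar profile were found by the Euclidean distance of mean-centred log2 CPM over the 4 libraries, among 7028 genes whose mean log2 CPM was 4 or more. Among the 5 nearest to Ly6c1 were Satb1, Myo6, Als2cl and Treml2, at distances of 0.651 to 1.11. Satb1, a chromatin organiser of T cells, was at 323, 178, 80.5 and 46.2 CPM, so that A was above B in each group, as for Ly6c1. Satb1 had a log2 fold change of -1.98 ± 0.41 and Myo6 of -2.25 ± 0.19, a direction fixed by the choice of genes for their likeness to Ly6c1. Hexa, a lysosomal enzyme subunit, was nearest to Ly6a at a distance of 0.0253, with 64.4, 48.2, 87.5 and 67.9 CPM. The next were Sfi1, Blcap, Dtx4 and Ccdc125. Ifi27, a gene induced by interferon, was nearest to Ly6e at a distance of 0.0375, with 154, 149, 171 and 200.4 CPM. The next were N4bp1, Dnlz, Unc45a and Gbf1. Profiles over 4 libraries are few points, and each gene shares library and depth with its neighbours.

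**Figure D5:**
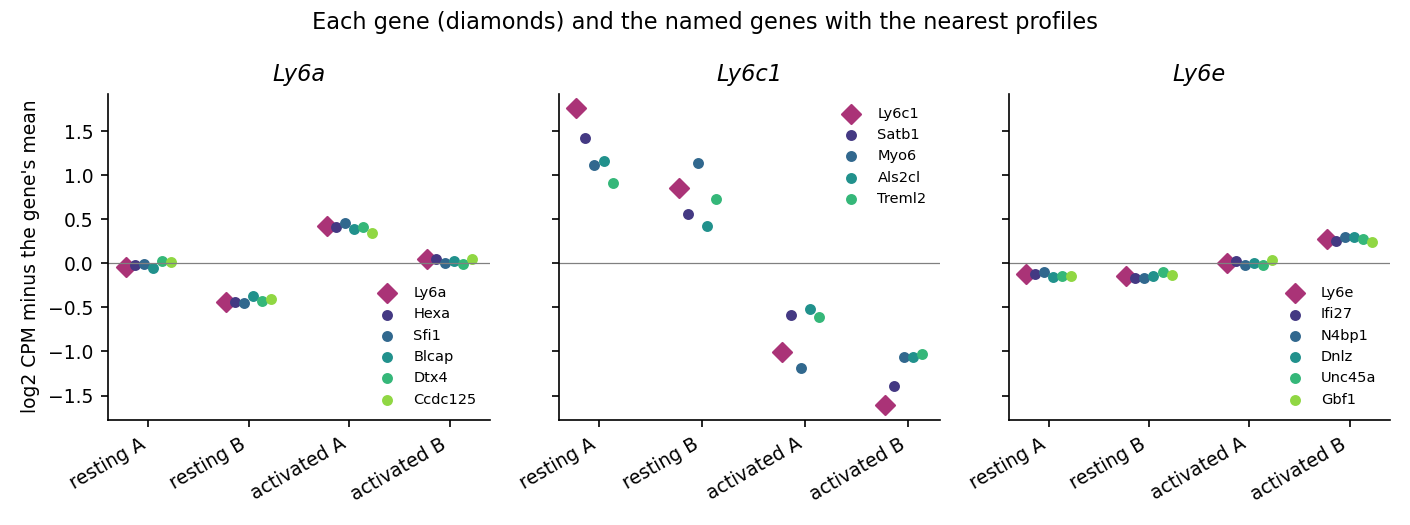
Log2 CPM minus the gene's mean in the 4 libraries for Ly6a, Ly6c1 and Ly6e (diamonds) and the genes named with the nearest profiles (dots; 5 for Ly6a and Ly6e, 4 for Ly6c1). Ly6c1 and its neighbours lie above 0 in the resting and below 0 in the activated libraries, and within each group all but Myo6 are higher in A than in B; the profiles of Ly6a and Ly6e stay within about 0.5 of 0.

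Because interferons induce the members, 36 interferon response genes were read beside them, all of them tested. Of these, 26 lay below 0 and 10 above, with a median log2 fold change of -0.23. By edgeR 0 passed over all genes, with 7 lower and 0 higher where the unadjusted p was under 0.05, as were 2.61% and 6.3% of all tested genes. DESeq2 called 2 lower and 0 higher, against 0.845% and 2.32% of all genes. Oas2, an antiviral enzyme, was at 10.5 ± 1.14 and 3.06 ± 0.209 CPM in resting and activated Treg. Ifit3 was at 59.5 ± 12.1 and 30.01 ± 4.89 CPM and Ifit1 at 133 ± 14.1 and 81.2 ± 11.0 CPM. Oas2 and Ifit3 are the genes DESeq2 called (adjusted p = 0.00142 and 0.0309). Ly6a and Ly6e lay above 0 and Ly6c1 lay below the list's median.

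Ly6c1 was further set beside 24 genes of naive and quiescent T cells, all tested, a list on which earlier results of these data were known. Of these, 22 lay below 0, with a median of -1.15. At an unadjusted edgeR p under 0.05, 16 were lower and 1 higher, against 2.61% and 6.3% of all tested genes, and 0 passed over all genes. DESeq2 called 15 lower and 1 higher, against 0.845% and 2.32%. Dapl1 was at 30.7 ± 3.24 and 4.48 ± 0.644 CPM, S1pr1, the receptor for exit from lymphoid organs, at 879 ± 3.97 and 338 ± 7.52 CPM, and Igfbp4 at 64.2 ± 1.41 and 11.4 ± 4.08 CPM. The log2 fold change of Ly6c1, -2.64, lay between those of Dapl1 (-2.76) and Igfbp4 (-2.49).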

How the data were processed

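RNA sequencing of 4 spleen Treg libraries, 2 resting and 2 activated, was re-analysed from the deposited tables. The submitters' processing notes name STAR 2.4.0c, featureCounts, DESeq2 and mm10, with no role for each. Annotation, strand setting and read length: not given in the sources used here. As deposited by the authors, the tables hold raw counts per gene (whole numbers) and regularized log2 values from DESeq2. Identifiers were matched to GENCODE M21 without their version (37607 of 38924). Transcript lengths are from M21 too and may differ from the models the authors counted.

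Genes were kept with edgeR's filterByExpr (minimum count 10, minimum total 15), scaled by TMM (factors 0.962 to 1.04) and tested with edgeR 4.0.16 (R 4.3.3) by the quasi-likelihood test on group, all 4 libraries, with Benjamini-Hochberg adjustment over all genes tested and a threshold of 0.05. Fold changes use a prior count of 2. The SE was taken as the fold change (log2) divided by the root of F, and the 95% interval uses 2 residual plus 3.10 prior degrees of freedom; both are approximate. DESeq2 1.42.0, limma 3.58.1, other scalings and filters, summed relatives and leaving out each library were alternatives. The procedure was tested on simulated data. The biological coefficient of variation was 0.352.

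The members and lists were chosen with earlier results of these data known. Named genes are the members, tested Ly6 family genes, neighbours within 100 kb, the 5 nearest profiles per member (mean of at least 4 log2 CPM, without predicted genes and receptor segments) and the 3 genes of smallest p in the interferon, GPI anchor and naive lists; 1 of the profiles nearest to Ly6c1 is not reported here. Markers were given for context. Samples of a group come from independent animals, per the labels, and p-values measure the spread between 2 of them.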

Additional observations from a re-analysis of the deposited data

How the results depend on the processing

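Ly6c1 stayed lower and Ly6a and Ly6e stayed higher in activated Treg under every alternative run, with Ly6c1 between -3.04 and -2.13 apart from the summed count (-0.43). Over all genes, limma-voom called 0 members, as did edgeR with TMM, RLE or total-count scaling, with a smaller prior count and with a minimum of 1 CPM in 2 libraries. DESeq2 called 1 member (Ly6c1, -2.65), 3 Ly6 family genes higher and 2 lower. Without the low count filter edgeR called 1 member (Ly6c1, -2.67), 3 family genes higher and 2 lower; the cause was not tested. Leaving out each library in turn gave 0 to 1 members called, a Ly6c1 value of -3.04 to -2.13, a Ly6a value of 0.29 to 0.67, a Ly6e value of 0.13 to 0.41, 0 to 3 family genes higher and 0 to 1 lower. On the authors' regularized log2 values limma called 0 members. With the replicate number as a block, limma on those values called 2 members, Ly6c1 (-2.40, adjusted p = 7.55e-06) and Ly6a (0.44, adjusted p = 0.0212), 4 family genes higher and 2 lower. The share of all genes called is given here only for the main edgeR fit and DESeq2. Calls under the other fits thus have no background beside them. In that table, deviations of the libraries numbered 1 correlated across genes with r = 0.652, but the design names independent animals and 2 pairs are too few to show pairing. The count columns repeat 1 number within each group, so no block was fitted to them. Summing Ly6a, Ly6c1, Ly6c2 and Ly6i gave 0.15 (adjusted p = 0.993). Depth did not limit the members, which had at least 329 counts in each library, whereas 29 Ly6 family genes were too low to test.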

Other observations

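Genes that build the GPI anchor, by which Ly6 proteins are held at the membrane were read beside the members. Of 29 listed genes 28 are in the count table and all 28 were tested, with 13 above 0, 15 below and a median log2 fold change of -0.02. By edgeR 0 passed over all genes. Where the unadjusted p was under 0.05, 1 was higher and 0 lower, against 6.3% and 2.61% of all tested genes. DESeq2 called 0. The gene at an unadjusted p under 0.05 was Gpaa1, a subunit of the transamidase that attaches the anchor, at 30.8, 41.9, 49.7 and 66.4 CPM from resting A and resting B to activated A and activated B (log2 fold change 0.67 ± 0.26, edgeR adjusted p = 0.539). Pigw (-0.84 ± 0.45) and Pigz (0.94 ± 0.57) came next by p.

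Among the untested family genes, the complement regulators Cd59a and Cd59b had 8, 4, 16 and 5 counts and 1, 0, 10 and 5 counts in the same order. Ly6g, the neutrophil marker, had 0, 0, 1 and 0 counts. Ly6f, Ly6l, Lypd1 and Psca had counts only in activated B (5, 4, 7 and 5), the library in which 23398 genes were detected against 18928 to 19610 in the others.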
